A study of Homo sapiens with 2 samples.

Results

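The genes described here encode the enzymes that make sterols and fatty acids, together with the regulators that control them. The list holds 33 genes, drawn up by known function, with no signal threshold in the rule, although earlier results of these data were known: 18 enzymes of the mevalonate and sterol pathway, 6 regulators and carriers of the sterol response, and 9 genes of fatty acid and related lipid synthesis. A probe set that carried no other gene's symbol was available for 31 of them, out of 18404 such genes on the array. FDFT1 and HSD17B7 had none, and no signal of their own is given. The cells were HL-60, an established line grown from a human promyelocytic leukaemia, and their RNA was hybridised to 2 arrays, called replicates 1 and 2 of wild-type cells. They were kept in DMEM with foetal bovine serum and no treatment is named, per the labels. The arrays form 1 group of a single line, so no genotype or treatment is compared. No label states that the replicates were separate cultures, so their spread may be technical.

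Cells build cholesterol from acetyl-CoA through mevalonate, isoprenoids and squalene, and build fatty acids from malonyl-CoA on a single large synthase. Both pathways are under the control of the sterol regulatory element binding proteins (SREBPs), membrane-bound transcription factors. When membrane sterol is low, the escort protein SCAP carries an SREBP from the endoplasmic reticulum to the Golgi, where proteases release its active part; when sterol is high, INSIG proteins hold SCAP back. SREBP-2 acts mainly on sterol genes and SREBP-1 mainly on fatty acid genes, often together with the factor NF-Y, which binds CCAAT boxes. Growing leukaemia cells need both products for new membranes.

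Promoters of some members are shown first, from the RefSeq promoter table (GRCh38.p14). Whether they bear on the array values below was not tested. Each window runs from 250 bases before to 50 bases after a transcription start, 300 in all, and windows were found for 29 members. The window of SREBF2 is shown because it was the only one among the members with a sterol regulatory element in the searched form. Those of NSDHL, MSMO1, DHCR7 and AACS were chosen after their array values were seen. The sterol genes were taken as members that were lower on replicate 2. AACS was taken as the member with the largest rise, from a replicate 1 value close to background. Capitals mark CCAAT, or ATTGG where it lies on the other strand, and in SREBF2 also the sterol regulatory element, the longer run of capitals. The positions are chr22:41832855-41833154, plus strand; chrX:152830813-152831112, plus strand; chr4:165327419-165327718, plus strand; chr11:71448344-71448643, minus strand; and chr12:125065185-125065484, plus strand.
SREBF2: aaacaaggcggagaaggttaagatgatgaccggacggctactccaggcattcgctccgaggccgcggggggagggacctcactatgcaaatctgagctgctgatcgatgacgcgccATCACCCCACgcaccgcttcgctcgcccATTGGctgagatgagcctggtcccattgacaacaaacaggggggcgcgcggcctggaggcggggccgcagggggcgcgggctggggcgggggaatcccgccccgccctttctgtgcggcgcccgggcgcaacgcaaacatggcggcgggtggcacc
NSDHL: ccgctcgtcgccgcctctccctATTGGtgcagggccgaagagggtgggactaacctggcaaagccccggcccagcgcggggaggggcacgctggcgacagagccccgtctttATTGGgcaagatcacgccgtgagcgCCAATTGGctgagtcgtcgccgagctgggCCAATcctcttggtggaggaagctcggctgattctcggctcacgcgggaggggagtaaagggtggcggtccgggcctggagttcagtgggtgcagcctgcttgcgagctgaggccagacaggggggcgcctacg
MSMO1: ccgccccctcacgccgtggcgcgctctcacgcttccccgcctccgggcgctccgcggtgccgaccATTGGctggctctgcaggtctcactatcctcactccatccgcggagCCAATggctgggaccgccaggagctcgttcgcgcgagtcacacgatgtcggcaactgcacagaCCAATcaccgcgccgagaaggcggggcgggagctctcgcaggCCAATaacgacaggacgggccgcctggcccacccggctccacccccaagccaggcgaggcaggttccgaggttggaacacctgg
DHCR7: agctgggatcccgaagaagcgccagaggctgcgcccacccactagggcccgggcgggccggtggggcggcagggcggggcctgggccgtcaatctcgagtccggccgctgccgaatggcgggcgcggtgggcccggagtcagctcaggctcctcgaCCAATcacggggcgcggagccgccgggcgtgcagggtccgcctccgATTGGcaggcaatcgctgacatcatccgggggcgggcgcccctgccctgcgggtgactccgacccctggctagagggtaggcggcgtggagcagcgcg
AACS: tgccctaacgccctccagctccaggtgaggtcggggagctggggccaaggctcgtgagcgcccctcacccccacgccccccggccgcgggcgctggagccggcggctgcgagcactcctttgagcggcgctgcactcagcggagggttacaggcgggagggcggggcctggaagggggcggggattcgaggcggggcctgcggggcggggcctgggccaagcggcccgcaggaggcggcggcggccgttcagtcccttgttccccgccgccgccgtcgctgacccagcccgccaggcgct

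Motifs were searched on both strands, with overlapping matches counted: the sterol regulatory element core TCACNCCAC, its classical 10-base form (the same core with C at the free position and A before it), the NF-Y box CCAAT, the GC box GGGCGG and the E box CACGTG. The 10-base form was found in 16 of 35116 windows (0.0456%) and the core in 396 (1.13%). In SREBF2 the 10-base form began 134 bases before the start, with a CCAAT box on the other strand beginning 106 bases before it. CCAAT boxes were found in 15 of 20 windows of the sterol enzymes (75.0%), against 34.6% of all windows and 34.7% of those of protein-coding genes. The regulators had one in 3 of 7 windows and the fatty acid genes in 6 of 14 (42.9% of each). NSDHL held 5 such boxes, of which one pair overlaps, MSMO1 held 4, DHCR7 held 2 in the window shown and AACS held 0. DHCR7 had another window with 0, and the window with more boxes is the one shown. GC boxes were found in 36 of the members' 41 windows (87.8%), against 45.0% of all windows and 56.3% of protein-coding ones. E boxes were found in 5 of the 41 windows, against 7.26% of all windows. Some genes had several windows, which can overlap. A match describes the letters only, and the absence of one does not say that a factor is not bound.

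Nearly all of the measured members passed the more lenient of the background thresholds used, and fewer passed the stricter one. Background was set at the 95th percentile of 340 olfactory receptor genes, sensory receptors not expected in blood cells (2.98 on replicate 1 and 2.87 on replicate 2, log2 RMA signal), and a stricter one at the same percentile of 115 keratin-associated protein, bitter taste receptor and beta-defensin genes (5.41 and 5.23). Of the 31 measured genes 30 were above the olfactory threshold on both arrays, against 55.8% of all named genes, and 14 were above the second, against 17%. The median signal of the members was 5.41 on replicate 1 and 5.14 on replicate 2, while that of all named genes was 3.35 and 3.34. A probe set's signal depends on its probes, so each gene is set against background and against itself on the other array, and the members are not ranked against each other. Of the promyelocyte markers, 7 of 7 measured genes were above the olfactory threshold, among them MPO, the myeloperoxidase of the granules (8.21 on replicate 1 and 7.48 on replicate 2). The T cell, hepatocyte and epithelial markers had 0 of 3 members above it on both arrays in each list. The adipocyte and fibroblast markers had 1 of 3 each, PLIN1 (3.22 and 3.03) and COL1A1 (3.75 and 3.63). Of the erythroid markers 0 of 2 measured genes passed on both arrays. APOA1, KRT19 and LEP passed on replicate 1 only, and the erythroid marker ALAS2 on replicate 2 only. Of the B cell markers 2 of 2 passed: CD79A (3.02 and 3.24) and CD79B (3.33 and 3.19), both below the second threshold.

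**Figure D1:**
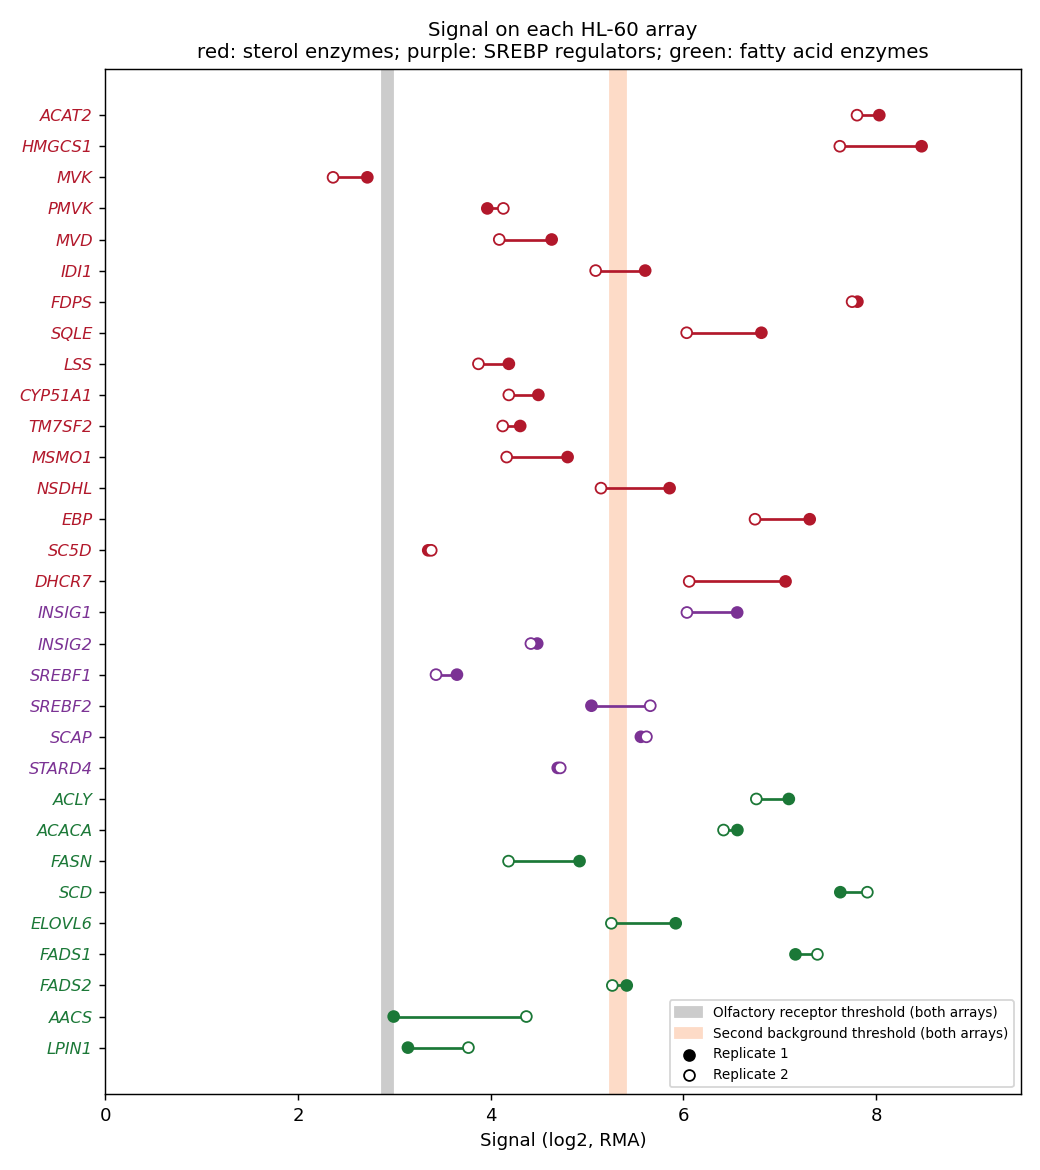
Log2 RMA signal (x axis) of the 31 measured genes (y axis, in pathway order) on replicate 1 (filled points) and replicate 2 (open points), with lines joining the arrays; shaded bands span the background thresholds of the arrays. MVK is the only gene left of the olfactory band, and most red lines run to a lower value on replicate 2.

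The arrays differed in the sterol enzymes. Of 16 measured sterol enzymes 14 were lower on replicate 2, where 52.6% of all named genes were lower. Of the 16, 8 were lower by more than 0.5 on the log2 scale, about 1.41-fold, against 9.58% of all named genes, and 0 were higher by as much, against 7.95%. The median difference of replicate 2 minus replicate 1 was -0.43 for these enzymes and -0.04 for all named genes. Across all named genes the difference had an SD of 0.39, which corresponds to 0.28 per array (n = 2). The 0.39 is the spread to read beside the difference of a single gene below. It pools all genes, dim ones and equal ones included, and is no gene's own error. With 1 array on each side, no test of any difference was possible. In a bulk sample, fewer cells of a kind and less RNA per cell cannot be told apart.

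In the opening steps from acetyl-CoA to farnesyl diphosphate, 6 of 7 enzymes were lower on replicate 2 and 3 of them by more than 0.5. HMGCS1, the cytosolic synthase that makes HMG-CoA, read 8.47 on replicate 1 and 7.62 on replicate 2, a mean of 8.05 ± 0.60 (SD, n = 2) and a 1.80-fold lower signal on replicate 2. MVD, which decarboxylates mevalonate diphosphate, read 4.63 and 4.09 (1.46-fold lower). IDI1, the isomerase that interconverts the isoprenoid building blocks, read 5.60 and 5.09 (1.43-fold lower). HMGCS1, MVD and IDI1 stood furthest apart between the arrays within this segment, and HMGCS1 was above both thresholds on both arrays. ACAT2, the thiolase that joins acetyl-CoA units, read 8.03 and 7.80. FDPS, which makes farnesyl diphosphate, read 7.81 and 7.75. Its arrays differed by less than the SD of differences over all named genes. Other probe sets are shared between FDPS and a pseudogene, and the signal of FDPS is uncertain where probes match more than 1 copy. PMVK, the phosphomevalonate kinase, was the exception in direction, with 3.96 on replicate 1 and 4.13 on replicate 2. MVK, the mevalonate kinase that acts before it, read 2.72 and 2.36 and was below the olfactory threshold on both arrays, the only member to be so. Both of its values lie within the background range.

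In the later steps from squalene to cholesterol, 8 of 9 measured enzymes were lower on replicate 2, 5 of them by more than 0.5, with a median difference of -0.57. DHCR7, the reductase of the last step of one branch, read 7.06 on replicate 1 and 6.06 on replicate 2, a mean of 6.56 ± 0.71 (SD, n = 2). This 2.00-fold lower signal was the largest difference in that direction among the members. SQLE, the squalene epoxidase and a control point of the pathway, read 6.81 and 6.03 (6.42 ± 0.55, 1.71-fold lower). NSDHL, a sterol dehydrogenase of the demethylation steps, read 5.86 and 5.14 (1.64-fold lower). MSMO1, the methylsterol oxidase that works beside it, read 4.80 and 4.17 (1.55-fold lower). EBP, the sterol isomerase, read 7.31 and 6.74 (1.48-fold lower). DHCR7, SQLE, NSDHL, MSMO1 and EBP were each above the olfactory threshold on both arrays. LSS, which closes squalene epoxide into lanosterol, read 4.19 and 3.87, and TM7SF2, a sterol reductase, 4.31 and 4.12. SC5D, the desaturase that acts just before DHCR7, read 3.35 and 3.38 and was the only one of the 9 that was not lower on replicate 2. CYP51A1, the lanosterol demethylase, averaged 4.49 and 4.19 over a pair of probe sets that lay 4.47 apart. One of them read 6.79 and 6.36, the other 2.20 and 2.01, below the olfactory threshold. Both were lower on replicate 2.

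**Figure D2:**
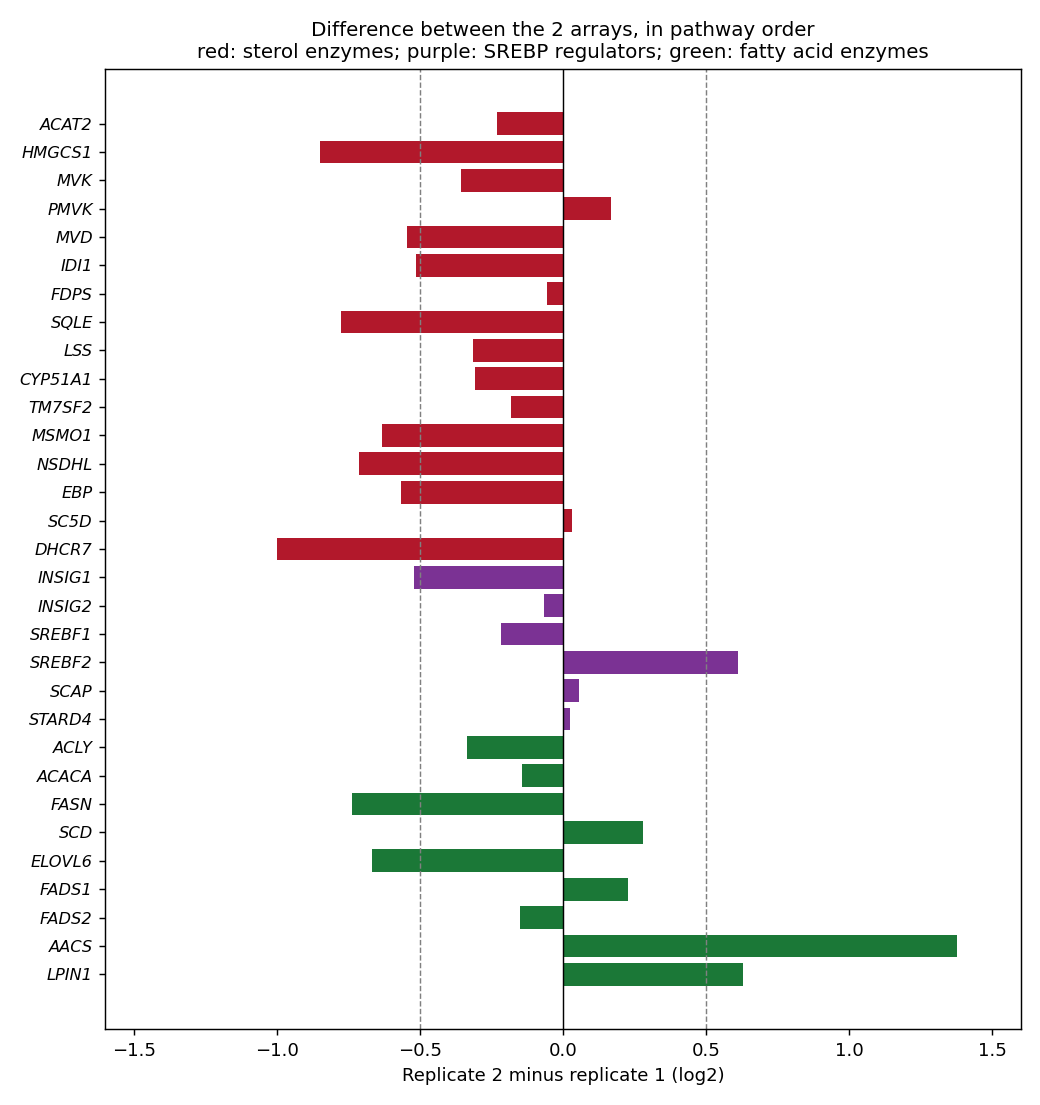
Difference of replicate 2 minus replicate 1 in log2 signal (x axis) for the 31 measured genes (y axis, in pathway order); dashed lines mark 0.5 in each direction. The sterol enzymes lie left of 0 in 14 of 16 cases, and AACS, LPIN1 and SREBF2 are the 3 genes past 0.5 on the right.

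The regulators did not share the direction of the enzymes: 3 of 6 were higher on replicate 2 and 3 lower, with a median difference of -0.02. These shares were near the 42.1% and 52.6% of all named genes. SREBF2, which encodes SREBP-2, read 5.05 on replicate 1 and 5.66 on replicate 2 (5.35 ± 0.43, SD, n = 2, or 1.53-fold higher on replicate 2). It was the one regulator higher by more than 0.5, opposite to most sterol enzymes. INSIG1, the INSIG gene that is itself an SREBP target, read 6.56 and 6.04 (6.30 ± 0.37, 1.44-fold lower on replicate 2), the same direction as those enzymes. Its paralogue INSIG2 read 4.48 and 4.42, a difference smaller than the SD of 0.39 of differences over all named genes. SCAP, the escort protein gene, read 5.56 and 5.62. STARD4, a cytosolic sterol carrier, read 4.70 and 4.72, and its direction turned after quantile normalization (-0.0026). SREBF1, which encodes SREBP-1, read 3.65 and 3.43, above the olfactory threshold only.

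The fatty acid genes were mixed. Of the 9 genes 5 were lower on replicate 2 (55.6%), close to the 52.6% of all named genes. By more than 0.5, 2 were lower and 2 higher (22.2% each), against 9.58% and 7.95% of all named genes. Their median difference was -0.14, whereas their mean was 0.053, and -0.11 without AACS. FASN, the fatty acid synthase, read 4.92 on replicate 1 and 4.19 on replicate 2 (4.55 ± 0.52, 1.67-fold lower on replicate 2). ELOVL6, which elongates palmitate, read 5.92 and 5.25 (5.59 ± 0.47, 1.59-fold lower). The enzymes that feed the synthase were closer between the arrays. ACLY, which makes cytosolic acetyl-CoA from citrate, read 7.09 and 6.76, and ACACA, which makes malonyl-CoA, read 6.56 and 6.42. The desaturases differed by less than 0.5 as well, and not all in the same direction. SCD, which introduces the first double bond, read 7.63 and 7.91. The polyunsaturated fatty acid desaturases FADS1 and FADS2, neighbours on chromosome 11, read 7.16 and 7.39 for FADS1 and 5.41 and 5.26 for FADS2.

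AACS and LPIN1 stood apart from the rest of this group. AACS, the acetoacetyl-CoA synthetase that turns a ketone body into a precursor of both pathways, read 2.99 on replicate 1 and 4.37 on replicate 2 (3.68 ± 0.97, SD, n = 2). This 2.60-fold higher signal was the largest difference among the members, in a gene that was barely above the olfactory threshold of 2.98 on replicate 1. More than 1 on the log2 scale separated the arrays upward for 1.08% of all named genes and downward for 0.88%, and among the members for AACS upward and for DHCR7 downward. LPIN1, a phosphatidate phosphatase of glycerolipid synthesis, read 3.14 and 3.77 (1.55-fold higher on replicate 2).

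In the whole set of 31 genes, 22 were lower and 9 higher on replicate 2, where 42.1% of all named genes were higher. Those lower by more than 0.5 numbered 11 (35.5%) and those higher by more than 0.5 numbered 3 (9.68%). Equal values on the arrays were found for 0, which in 31 genes is close to the 5.23% of all named genes. The median difference was -0.23. The same shares among brighter genes differed little from those of all genes: of the 10274 named genes above the olfactory threshold 9.01% were lower by more than 0.5, and of the 3137 above the second threshold 9.85%. Of the 14 members above the second threshold 6 were lower by more than 0.5 and 0 higher, against 7.55% of genes above that threshold that were higher by as much. Passing a threshold on both arrays depends on the values compared, so these counts describe brightness only. Of the 7 measured promyelocyte markers 4 were lower on replicate 2 (57.1%), against 52.6% of all named genes. By more than 0.5, 3 were lower (42.9%) and 0 higher, against 9.58% and 7.95% of all named genes. Their median difference was -0.25, and CTSG and PRTN3 were lower by more than any member. A large fall was thus not particular to the sterol enzymes. Among the granule genes CTSG read 8.99 and 7.24, PRTN3 7.95 and 6.47, and MPO was lower too, whereas ELANE (4.47 and 4.71) and AZU1 (3.01 and 3.19) were higher. SRGN, a granule proteoglycan, was lower by 0.25 (mean 9.13), and MYB, a progenitor factor, read 9.29 and 9.53. The part of these markers in the lower sterol enzyme signals was not tested.

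**Figure D3:**
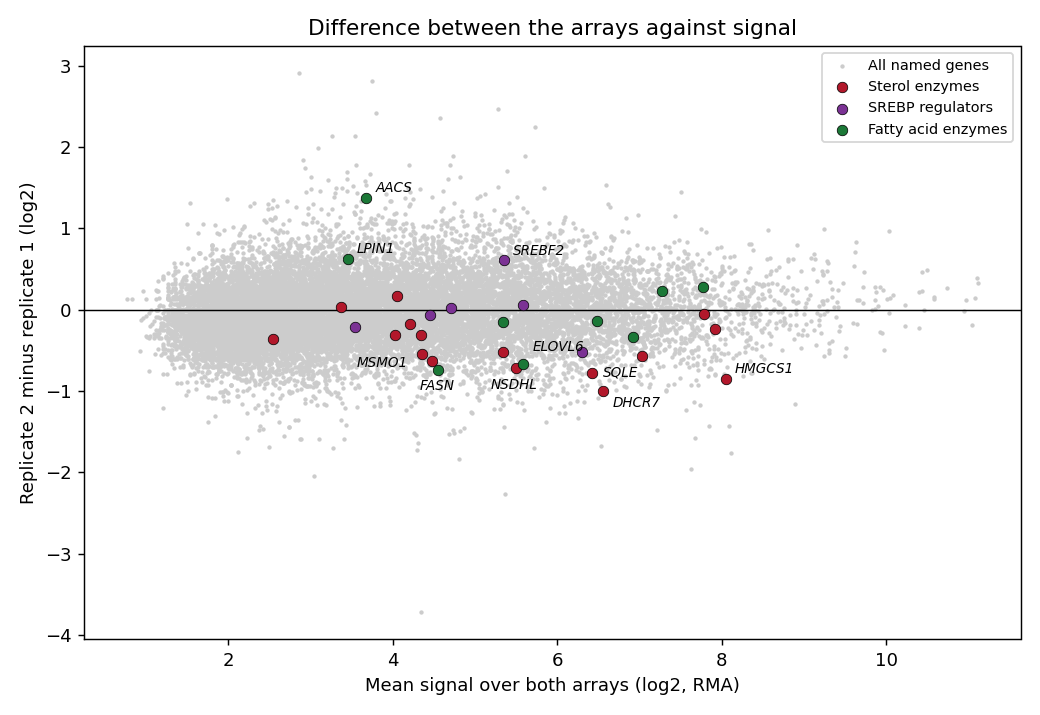
Difference of replicate 2 minus replicate 1 (y axis, log2) against the mean signal over both arrays (x axis, log2 RMA) for 18404 named genes in grey and the measured members in colour. The 8 sterol enzymes lower by more than 0.5 span mean signals from 4.36 (MVD) to 8.05 (HMGCS1).

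The promoter letters and the array differences can be set side by side for the 28 measured members with a window. Of the 19 members with a CCAAT box in at least 1 window, 15 were lower on replicate 2, 8 of them by more than 0.5, with a median difference of -0.34. Of the 9 without one, 4 were lower, 1 of them by more than 0.5, with a median of 0.058. The genes without one are PMVK, CYP51A1, INSIG2, SREBF1, SCAP, ELOVL6, FADS1, AACS and LPIN1. Among the sterol enzymes with a window, PMVK and CYP51A1 lack a box, and PMVK was higher on replicate 2 while CYP51A1 was lower. SC5D, the other sterol enzyme that was not lower, holds a box. Over all named genes with a window, 51.9% of the 6008 with a CCAAT box and 52.9% of the 8222 without one were lower on replicate 2, and 9.20% and 9.55% were lower by more than 0.5. This split was chosen after the differences were seen. Most sterol enzymes hold a box, while the fatty acid genes and the regulators lie on both sides. The split is thus tied to the sterol enzyme role, and it is a description with no test.

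Genes around the pathway did not share the sterol enzymes' direction as a group. These were 37 measured genes of fatty acid activation and elongation, sterol transport and SREBP processing. On replicate 2, 15 were lower (40.5%) and 19 higher (51.4%), against 52.6% and 42.1% of all named genes. Their median difference was 0.12. Above the olfactory threshold were 30 (81.1%), against 55.8% of all named genes. ACSL1, which activates long-chain fatty acids, was the furthest above its replicate 1 value (3.98 on replicate 1 and 5.20 on replicate 2), and ELOVL1, the elongase of very long chains, the furthest below it (6.48 and 5.69). The others beyond 0.5, named after their values were seen, were ME1 (3.78 and 4.60), a source of NADPH for lipid synthesis, ACACB (3.15 and 3.84), the mitochondrial acetyl-CoA carboxylase, and MBTPS2 (4.80 and 5.42), a protease that releases SREBPs, all higher on replicate 2. SLC25A1 (4.51 and 3.78), the mitochondrial citrate carrier that supplies ACLY, and ERG28 (7.88 and 7.37), a scaffold protein of sterol synthesis, were lower. Of 12 measured genes regulated by LXR, the receptor that answers to sterol excess, 6 were higher and 6 lower. The shares of all named genes were 42.1% and 52.6%. Only 5 of the 12 were above the olfactory threshold on both arrays (41.7%), against 55.8% of all named genes, so several of these directions lie within background. ABCA1, the cholesterol efflux transporter, read 2.59 and 5.01 and passed the olfactory threshold on replicate 2 only, which leaves its fold uncertain. Without ABCA1 the median of the LXR list was -0.14 in place of 0.036. SREBF1 and SCD belong to both sets, and SREBF1, at -0.22, was the LXR-list gene above background that was furthest below its replicate 1 value.

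**Figure D4:**
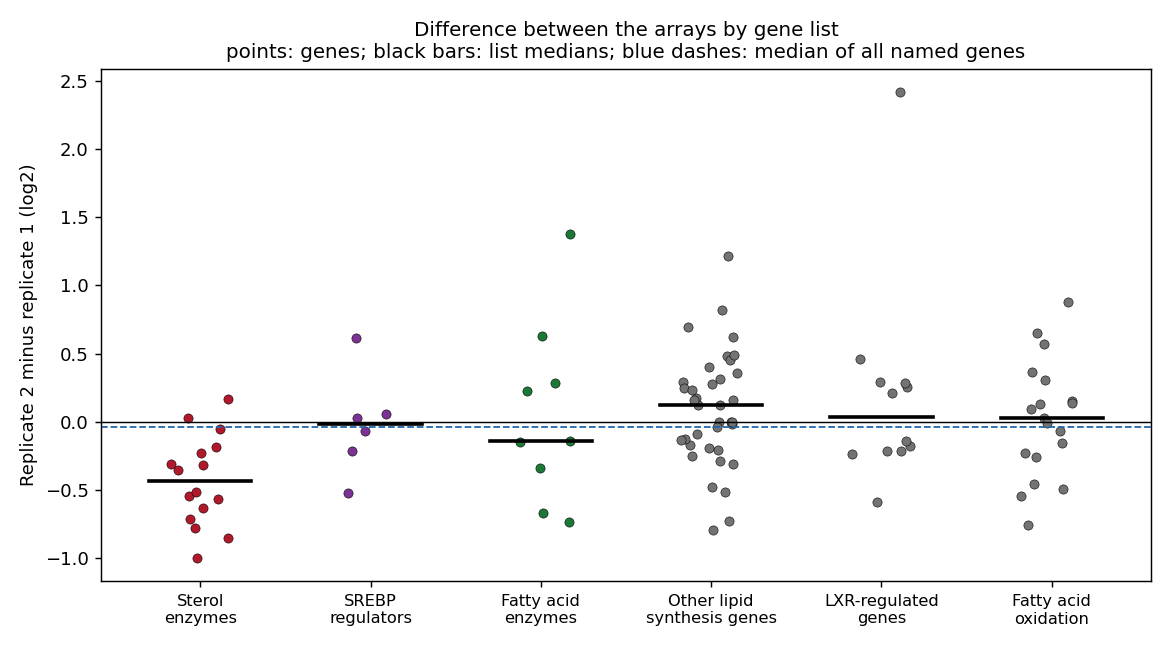
Difference of replicate 2 minus replicate 1 (y axis, log2) for each gene (points) by gene list (x axis), with list medians as black bars and the median of all named genes as a dashed line. The sterol enzymes have a median of -0.43. The medians of the regulators, fatty acid genes, other lipid synthesis genes, LXR-regulated genes and oxidation genes lie between -0.14 and 0.12. The promyelocyte markers, not shown, have a median of -0.25.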

How the data were processed

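Total RNA of HL-60 cells was amplified, biotin-labelled and hybridised to 2 Affymetrix Human Gene 1.0 ST arrays, per the labels' protocols. The values deposited by the authors are log2 signals per probe set made with RMA, per the submitters' processing notes. The log base was taken as 2 because that is RMA's own. The software version, and the set of arrays that RMA was run on were not given in the sources used here. RMA equalises the arrays' distributions, so a global change in RNA content cannot be seen. No scanner files were used here.

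Of 32321 probe sets, 19158 carried 1 gene symbol. Symbols were updated through Entrez IDs (19128 matched the RefSeq gene table of GRCh38.p14), which gave 18404 genes. Several probe sets of a gene were averaged. All measured members are named. In the other lists, the genes named are those with the largest difference each way where at least 1 array was above background, the genes shared with the members, and further genes stated to have been chosen after their values were seen. The members and lists were chosen with earlier results of these data known. With 1 group of 2 arrays no test was possible and no p-value was computed. The counting of lists was tested on simulated data. Promoter windows come from RefSeq (GRCh38.p14). A comparison of protein sequences was not analysed here. Alternatives were quantile normalization, loess, the highest probe set per gene, each array alone, a 99th percentile threshold, 2 filters on dim genes and the mean in place of the median. The tools were Python 3.11.15 with statsmodels 0.14.6, pandas 2.3.3, numpy 2.4.6 and matplotlib 3.10.9.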

Additional observations from a re-analysis of the deposited data

Results flagged for a closer look

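Signal for members of the pathway also appeared in probe sets outside the comparisons above, because their annotation names a member together with a pseudogene. The probe set shared by HSD17B7, a sterol reductase gene with no probe set of its own here, and its pseudogene HSD17B7P2 read 4.94 on replicate 1 and 3.97 on replicate 2, above the olfactory threshold on both arrays. Of a pair of probe sets shared by FDPS and FDPSP2, one read 4.46 and 4.26, above the olfactory threshold, and the other 2.31 and 1.42, below it. All 3 were lower on replicate 2, by 0.97 for the HSD17B7 probe set. The pseudogene HSD17B7P2 also had a probe set of its own, which read 2.19 on both arrays. Which gene gave the shared signals was not tested.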

How the results depend on the processing

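No paired analysis was possible because both arrays belong to 1 group. For 12 results over lists, 58 of 64 alternatives counted as unchanged. This required the same direction, counts within 1.5 times, and medians within the list's own spread over the arrays. That spread comes from the same gap between the arrays, 0.40 for the sterol enzymes and 0.47 for the fatty acid genes. A median difference could thus shrink far and still count as unchanged, so the 58 are no measure of robustness. Leaving out 1 array gave 30 members above the olfactory threshold either way, 15 to 16 above the second threshold in place of 14, and a median signal of 5.14 to 5.41 in place of 5.35. With the mean in place of the median, the difference of the fatty acid genes turned from -0.14 to 0.053. With genes above the second background set only, a filter chosen after seeing the data, 17 members were left, so that 4 in place of 9 were higher on replicate 2, 9 in place of 14 differed by more than 0.5 and the lower sterol enzymes were 8 of the 8 left, in place of 14 of 16, and the median difference of the regulators turned from -0.02 to 0.058. With the olfactory threshold at its 99th percentile 26 members passed, without MVK, SC5D, SREBF1, AACS and LPIN1. The 8 sterol enzymes lower by more than 0.5 numbered 8 after quantile normalization and after loess as well. Of 93 recomputed differences of single members 1 had the other sign, that of STARD4. With the highest probe set per gene only CYP51A1 could change, because no other member had more than 1 probe set. Signals near the thresholds, as for AACS on replicate 1, leave a fold uncertain.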

Other observations

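Genes of fatty acid oxidation, the pathway that runs opposite to synthesis, were detected alongside it. Of 19 measured genes 15 exceeded the olfactory threshold and 11 exceeded the second, against 55.8% and 17% of all named genes. On replicate 2, 10 were higher and 9 lower, against 42.1% and 52.6% of all named genes, with a median difference of 0.02. SLC25A20, the carnitine carrier of the inner mitochondrial membrane, read 2.54 on replicate 1 and 3.41 on replicate 2 and passed the olfactory threshold on replicate 2 only. ETFB, a subunit of the electron carrier that serves the acyl-CoA dehydrogenases, read 7.04 and 6.29.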
